A study of Homo sapiens with 6 samples.

Results

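The BCL2 family apoptosis regulators described here are 10 genes chosen by symbol and not by their values: BCL2, BCL2L1, MCL1, BAX, BAK1, BID, BAD, BCL2L11, BBC3 and PMAIP1. Each matched 1 of the 63677 Ensembl identifiers in the count table, and 10 of 10 passed the filter on low counts that 15099 genes passed. RNA-sequencing was performed on T24, a line from a high-grade invasive bladder carcinoma. Control cells received a non-targeting siRNA and siRBM3 cells a pool of siRNAs against RBM3, an RNA-binding protein. In both groups the siRNA was given at 25 nM with Lipofectamine 2000 in serum-free medium for 4.5 h, and cells were harvested on the day after recovery in full medium. Polyadenylated RNA gave 3 stranded single-end libraries per group, numbered 1, 3 and 5 for control and 3, 4 and 5 for siRBM3. The labels do not say whether these came from separate cultures, so the p-values measure only the spread between these samples, which may be technical. No drug was given to these samples, and 1 cell line was sequenced.

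Proteins of the BCL2 family decide whether the outer mitochondrial membrane stays intact during stress. The effectors BAX and BAK1 can form pores that release cytochrome c, the pro-survival proteins BCL2, BCL2L1 (BCL-XL) and MCL1 hold them in check, and the BH3-only proteins BID, BAD, BCL2L11 (BIM), BBC3 (PUMA) and PMAIP1 (NOXA) promote pore formation by binding pro-survival members and in some cases the effectors. Many of these proteins are also controlled after translation, by cleavage, phosphorylation or degradation, and mRNA levels do not record that.

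The members share the BH3 motif, the short stretch through which they bind one another, and its coding sequence is shown because it is the feature that joins 3 otherwise different roles. The motif was searched as 8 codons: a leucine codon, any 3 codons, a codon for glycine, alanine or serine, an aspartate codon, any codon, and a codon for phenylalanine, isoleucine, leucine, methionine or valine. In the GENCODE canonical transcripts on GRCh37, 10 of 10 members held it, each at 1 place, and 2492 of 19553 coding transcripts (12.7%) held it somewhere in frame. A match is therefore a description of the letters and not of a binding site. The 24 bases are written 5′ to 3′ on the coding strand, with the leucine codon and the fifth and sixth codons in capitals.
BCL2: CTCcgccaggccGGCGACgacttc
BCL2L1: CTGagggaggcaGGCGACgagttt
MCL1: TTAcgacgggttGGGGATggcgtg
BAX: CTCaagcgcatcGGGGACgaactg
BAK1: CTCgccatcatcGGGGACgacatc
BID: CTCgcccaggtcGGGGACagcatg
BAD: CTCcggaggatgAGTGACgagttt
BCL2L11: TTGcggcgtattGGAGACgagttt
BBC3: CTGcggcggatgGCGGACgacctc
PMAIP1: CTCaggagatttGGAGACaaactg

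The fifth codon was a glycine codon in 8 members, a serine codon in BAD and an alanine codon in BBC3. The sites lie in coding exons. Those of the pro-survival genes were at chr18:60985588-60985611 on the minus strand in exon 2 of 3 of BCL2, at chr20:30309731-30309754 on the minus strand in exon 2 of 3 of BCL2L1, and at chr1:150551347-150551370 on the minus strand in exon 1 of 3 of MCL1. Those of the effectors were at chr19:49459044-49459067 on the plus strand in exon 3 of 6 of BAX and at chr6:33543170-33543193 on the minus strand in exon 4 of 6 of BAK1. Among the BH3-only genes, the site was at chr22:18222187-18222210 on the minus strand in exon 4 of 6 of BID, at chr11:64039100-64039123 on the minus strand in exon 3 of 4 of BAD, and at chr2:111907680-111907703 on the plus strand in exon 3 of 4 of BCL2L11. It was at chr19:47729842-47729865 on the minus strand in exon 3 of 4 of BBC3 and at chr18:57569905-57569928 on the plus strand in exon 2 of 2 of PMAIP1. Reads were summed over whole genes, so the values below do not separate transcripts with the motif from splice forms without it.

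The libraries held 23603992 to 45098612 counts. The largest of them, siRBM3 replicate 3, had 9.4% of its counts on mitochondrial genes. The share was 4.15% in siRBM3 replicate 4, 2.32% in siRBM3 replicate 5 and 1.63% to 2.86% in control libraries. The members together took 0.117% to 0.14% of all counts. RBM3 had a mean of 298 ± 71.3 CPM (counts relative to the library size after TMM scaling, mean ± SD, n = 3) in control and 67.5 ± 19.6 in siRBM3 libraries. That is a log2 fold change of −2.14 (SE 0.24) with an FDR of 0.0822 by edgeR and an adjusted p of 3.87e-14 by DESeq2, and an exact two-sided permutation test gave p = 0.1, the smallest that 3 libraries against 3 allow. The epithelial keratin genes KRT8 and KRT18 were at 343 to 854 and 661 to 1339 TPM (counts per length of exon, scaled to the same sum in each library), and the urothelial regulators PPARG, FOXA1 and GATA3 at 33.9 to 49.5, 34.2 to 49.2 and 12 to 17.6 TPM. Of the uroplakin genes, UPK2 was at 3.99 to 7.24 TPM and UPK1A, UPK1B and UPK3A at or below 0.995 TPM, and CDH1 was at or below 0.521 TPM. KRT19 was at 267 to 635 TPM, EPCAM at 7.9 to 11.2 TPM and KRT20 at or below 0.394 TPM. The mesenchymal gene VIM was at 1489 to 2351 TPM. Of the basal genes, CD44 was at 378 to 490 TPM and KRT5, KRT6A and KRT14 at or below 0.197 TPM. The endothelial genes CDH5 and VWF were at 19.8 to 24.2 and 0.106 to 0.29 TPM.

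In control cells, the members ranged over levels per length from a mean of 417 TPM for MCL1 to 1.09 TPM for BCL2. MCL1, a short-lived pro-survival protein, had 417 ± 38.2 TPM (SD, n = 3), above 97.7% of the genes tested. PMAIP1, the BH3-only partner of MCL1, followed at 262 ± 41.6 TPM and BCL2L1 at 240 ± 9.79 TPM, and the ranges of these 2 genes overlapped. BAD had 144 ± 27.1 TPM and BAX 109 ± 19 TPM, again with overlapping ranges.

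BBC3 at 54.5 ± 7.81 TPM, BAK1 at 47.7 ± 1.65 TPM and BID at 40.7 ± 5.32 TPM formed a middle group, in which each neighbour in the order overlapped the next. BCL2L11 stood apart below them at 17.6 ± 2.83 TPM, close to the middle of all tested genes (percentile 51.3). BCL2, the founding member of the family, was last at 1.09 ± 0.295 TPM (percentile 9.23). These TPM values used the summed length of all annotated exons of a gene, and with the longest transcript instead BCL2L1 moved past PMAIP1 and BID past BAK1.

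The pro-survival genes made up 49.3% ± 1.4 of the members' summed TPM in control and 50% ± 3.7 in siRBM3 libraries. The effectors made up 11.8% ± 1.45 and 11.5% ± 1.88, and the BH3-only genes 38.9% ± 1.07 and 38.5% ± 2.38. The shares of the 3 roles thus differed by less than the spread between libraries. Within the roles, BCL2L11 made up 1.33% ± 0.238 in control and 2.27% ± 0.124 in siRBM3 libraries, with no overlap. BCL2L1 made up 18% ± 0.945 and 14.6% ± 0.833, also with no overlap. MCL1 made up 31.2% ± 2.05 and 35.3% ± 4.3, with overlapping ranges (29.1% to 33.2% and 31% to 39.6%). In CPM, 9.98% of all tested genes were higher and 9.93% lower without overlap.

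**Figure D1:**
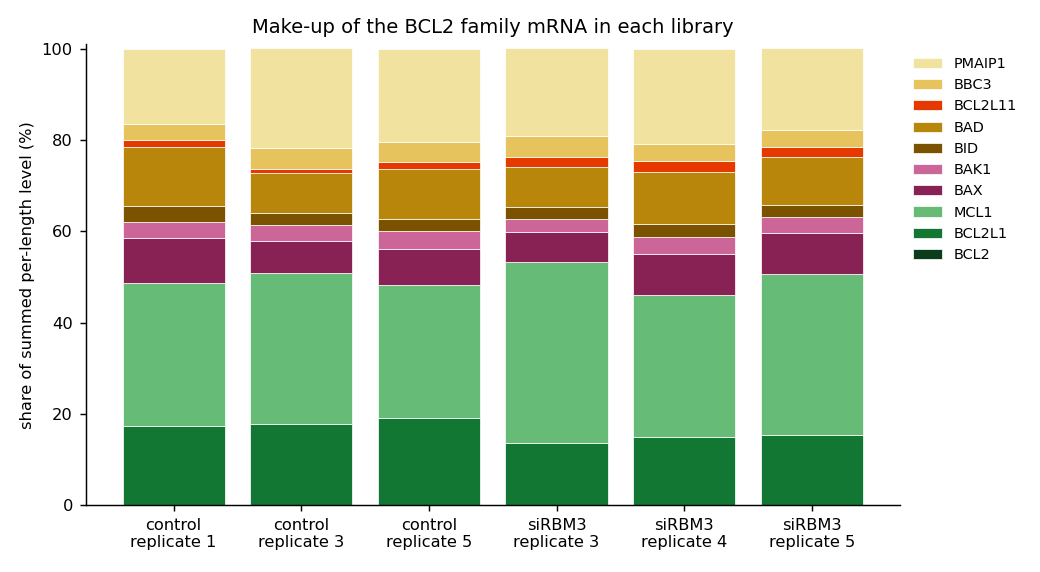
Share of the summed TPM of the 10 members taken by each member in each of the 6 libraries, in percent. MCL1 takes the largest share in every library, and the summed share of the pro-survival genes is between 46% and 53.3%.

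The comparison of siRBM3 with control asks whether silencing of RBM3 changed the mRNA of these regulators. BCL2L11 was higher in siRBM3 libraries and BCL2L1 was lower, each without overlap between the groups, and BID was also lower without overlap. Of all tested genes, 9.98% were higher and 9.93% lower without overlap. The FDRs of BCL2L11 and BCL2L1 by edgeR were 0.0822 and 0.23. The other 8 members gave unadjusted p-values above 0.05. No member met the limits in the study's methods (1.5-fold with FDR below 0.01) in edgeR's quasi-likelihood test over all 15099 genes, and neither did any other gene (0%). At an unadjusted p under 0.05, 1 of 10 members was higher, beside 6.56% of all tested genes, and 1 of 10 was lower, beside 6.58%. The median log2 fold change of the members was −0.07, beside −0.01 for all tested genes, and their median absolute log2 fold change was 0.13, beside 0.17. In DESeq2, which called 159 of 13068 genes (1.22%) at the same thresholds, 1 member was called, BCL2L11. In these bulk libraries a change in the share of cells that express a gene and a change in its RNA per cell cannot be told apart.

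**Figure D2:**
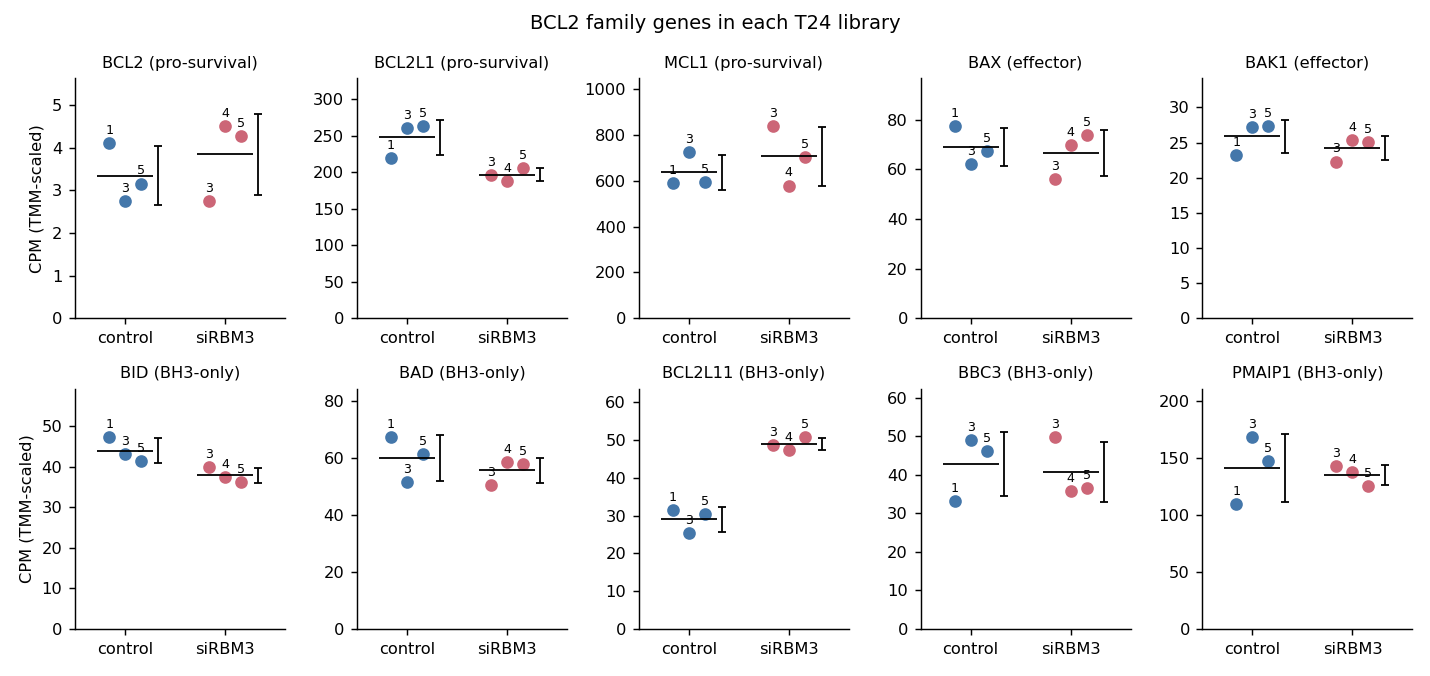
TMM-scaled CPM of each member in the 3 control and 3 siRBM3 libraries, on a separate linear axis for each gene. Points are libraries and bars are group means; the BCL2L11 points of siRBM3 lie above all control points, those of BCL2L1 and BID lie below, and the other 7 genes overlap.

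Among the pro-survival genes, BCL2L1, which encodes BCL-XL, had 220, 261 and 263 CPM in control libraries and 196, 188 and 206 CPM in siRBM3 libraries, both in order of replicate number, as for all genes here. All siRBM3 libraries lay below all control libraries, a pattern found in 9.93% of tested genes. The log2 fold change was −0.34 (SE 0.10, 95% interval −0.56 to −0.11), a level of 0.792 of control (0.676 to 0.929), with an unadjusted p of 0.00946 and an FDR of 0.23 by edgeR. The adjusted p by DESeq2 was 0.136. Of the exon length of BCL2L1 (ENSG00000171552, chr20:30252255-30311792), 41.3% is overlapped by ABALON, a gene on the opposite strand. The sources used here do not give the strand setting of the counting. ABALON itself has no deposited counts, so its part in the BCL2L1 values was not tested.

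MCL1 had 589, 724 and 596 CPM in control and 837, 579 and 704 CPM in siRBM3 libraries. The groups overlapped, and the highest and the lowest value were both siRBM3 libraries. The highest, siRBM3 replicate 3, was the library with 9.4% mitochondrial counts, and the part of this in the MCL1 value was not tested. The log2 fold change was 0.15 (SE 0.15, 95% interval −0.19 to 0.50, FDR 0.715 by edgeR), and without that library it was 0.01.

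BCL2 had 4.1, 2.75 and 3.16 CPM in control and 2.75, 4.5 and 4.28 CPM in siRBM3 libraries, from only 72 to 119 counts per library. The groups overlapped. With a log2 fold change of 0.19 (SE 0.26, 95% interval −0.40 to 0.78, FDR 0.8), the interval included both no difference and a 1.5-fold higher level.

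Both effectors gave overlapping groups. BAX had 77.3, 62.2 and 67.3 CPM in control and 56.2, 69.8 and 73.8 CPM in siRBM3 libraries, so that the highest was control replicate 1 and the lowest siRBM3 replicate 3. Its log2 fold change was −0.05 (SE 0.13, 95% interval −0.36 to 0.25, FDR 0.906). BAK1 had 23.2, 27.2 and 27.3 CPM in control and 22.3, 25.3 and 25.1 CPM in siRBM3 libraries.

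The BAK1 groups overlapped within this narrow range, and the log2 fold change was −0.10 (SE 0.12, 95% interval −0.38 to 0.18, FDR 0.785). BAK1 has a transcribed pseudogene, BAK1P1, with 88 to 131 counts per library, and how many reads the counting split between the 2 was not tested.

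BCL2L11, which encodes BIM, a BH3-only protein that binds all pro-survival members, differed most. It had 31.4, 25.3 and 30.3 CPM in control and 48.8, 47.5 and 50.8 CPM in siRBM3 libraries, from 661 to 2001 counts. The lowest siRBM3 library was well above the highest control library, and the 3 siRBM3 libraries lay close together, with a coefficient of variation of 3.41% beside 11.2% in control. Every siRBM3 library was above every control library in 9.98% of all tested genes. The gene (ENSG00000153094) lies at chr2:111876955-111926021 on GRCh37. The log2 fold change was 0.76 (SE 0.12, 95% interval 0.49 to 1.02), 1.69 times the control level (1.41 to 2.03). The unadjusted p was 0.000147, the 25th smallest of 15099, and the FDR was 0.0822 by edgeR. That is the smallest FDR of any gene but a tied value, which RBM3 shares at an unadjusted p of 2.35e-05 by edgeR. DESeq2 gave a log2 fold change of 0.75 with an adjusted p of 3.20e-05 and limma-voom 0.76 with an adjusted p of 0.0871, so the call differed between the tools while the size was nearly equal.

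**Figure D3:**
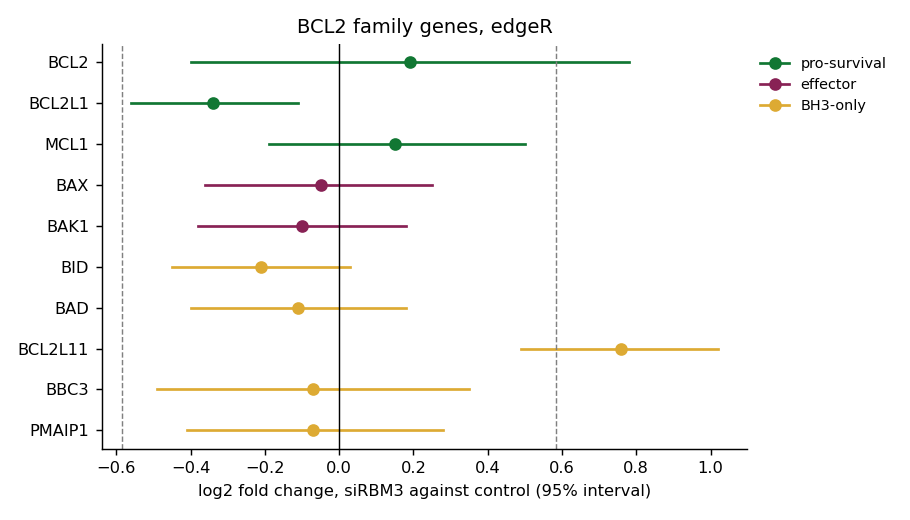
Log2 fold change of each member in siRBM3 against control from edgeR, with its 95% interval; dashed lines mark a fold change of 1.5 in either direction and colours mark the role. The intervals of BCL2L11 and BCL2L1 do not reach 0, and 8 of 10 intervals lie inside the dashed lines.

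Of the BCL2L11 exon length, 10.8% overlaps MIR4435-2HG on the opposite strand. That gene had 22.6, 33 and 33.2 CPM in control and 35, 29.6 and 29.2 CPM in siRBM3 libraries, with overlapping groups and a log2 fold change of 0.08 (SE 0.17, FDR 0.876 by edgeR).

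BID, which is cleaved by caspase-8 and links death receptors to mitochondria, had 47.3, 43.1 and 41.3 CPM in control and 39.9, 37.5 and 36.3 CPM in siRBM3 libraries. All siRBM3 libraries lay below all control libraries, as in 9.93% of tested genes. The difference was small, with a log2 fold change of −0.21 (SE 0.10, 95% interval −0.45 to 0.03), an unadjusted p of 0.0747 and an FDR of 0.437 by edgeR. BID and BCL2L1 were the 2 members with this pattern.

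The other BH3-only genes overlapped between groups. BAD, which binds BCL2 and BCL2L1 when it is not phosphorylated, had 67.2, 51.3 and 61.4 CPM in control and 50.5, 58.6 and 57.7 CPM in siRBM3 libraries, with a log2 fold change of −0.11 (SE 0.13, 95% interval −0.40 to 0.18, FDR 0.763). GPR137 lies opposite to 23.7% of the BAD exon length and had 35.5 to 50.9 CPM, with a log2 fold change of 0.16 and an FDR of 0.662.

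BBC3 and PMAIP1 encode BH3-only proteins that are regulated mainly by transcription. BBC3 had 33.3, 49 and 46.2 CPM in control and 49.8, 35.9 and 36.5 CPM in siRBM3 libraries, and PMAIP1 had 109, 168 and 147 CPM in control and 143, 137 and 125 CPM in siRBM3 libraries. In both genes control replicate 1 was the lowest library. The log2 fold changes were −0.07 (SE 0.18, 95% interval −0.49 to 0.35, FDR 0.905) and −0.07 (SE 0.15, 95% interval −0.41 to 0.28, FDR 0.889).

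The 95% interval lay within a fold change of 1.5 in both directions for 8 of 10 members, BCL2L1, MCL1, BAX, BAK1, BID, BAD, BBC3 and PMAIP1, and for 7371 of the 15099 genes tested. The exceptions were BCL2L11, where it reached beyond, and BCL2, where it was widest. Leaving out each library in turn kept BCL2L11 between 0.67 and 0.82 and BCL2L1 between −0.42 and −0.29 on the log2 scale, and both kept an unadjusted p under 0.05 by edgeR in 6 of 6 such fits. The FDR of BCL2L11 was 0.0443 without control replicate 1 and 0.198 to 0.341 without any other library, so that it was no longer under 0.1, and the FDR of BCL2L1 was 0.0988 to 0.513.

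**Figure D4:**
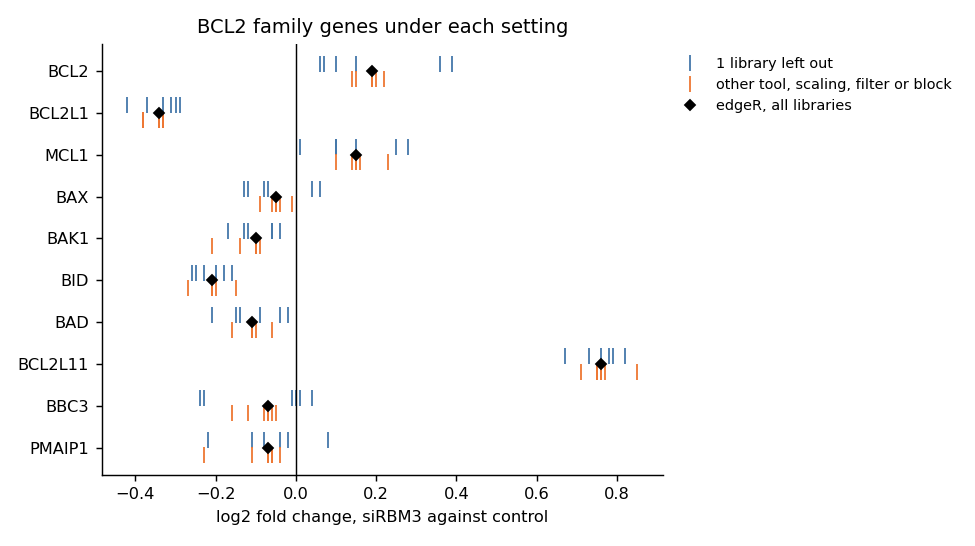
Log2 fold change of each member in siRBM3 against control in the main edgeR fit and under the 13 alternatives, which include leaving out each library. BCL2L11 stays between 0.67 and 0.85 and BCL2L1 between −0.42 and −0.29, while BAX, BBC3 and PMAIP1 cross 0.

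The balance of BCL2L11 against BCL2L1, taken per length in each library, was 0.0887, 0.0604 and 0.0718 in control and 0.155, 0.157 and 0.154 in siRBM3 libraries. This ratio was picked after the values of both genes were known and carries no test. Its mean was 2.11 times higher in siRBM3 libraries, and BCL2L11 stayed well below BCL2L1 in each library. MCL1 over BCL2L1, also picked afterwards, was 1.8, 1.87 and 1.53 in control and 2.89, 2.07 and 2.31 in siRBM3 libraries. The mean of BCL2L11 over MCL1 was 1.53 times that of control, again without overlap. This ratio also carries no test, and BCL2L11 alone was already higher without overlap while MCL1 overlapped between the groups. Other ratios overlapped between the groups. Their siRBM3 means were 1.2 times the control mean for BAX over BCL2L1 and 0.863 times for BAK1 over MCL1. They were 0.881 times for PMAIP1 over MCL1 and 0.848 times for BAX over BCL2.

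Other apoptosis genes were read from the same fit in 4 lists, beside all tested genes, whose median log2 fold change was −0.01. At an unadjusted p under 0.05, 6.56% of all tested genes were higher in siRBM3 cells and 6.58% were lower. Of 13 other BCL2-related genes 9 were tested, and 4 were lower and 0 higher at that p, with a median of −0.26. The 4 lower genes became 2 without control replicate 5, 2 without siRBM3 replicate 4 and 1 without siRBM3 replicate 5. BCL2L13, a mitochondrial membrane protein, went from 90.5 ± 8.52 to 70.8 ± 6.71 CPM, with a log2 fold change of −0.35 (SE 0.11, FDR 0.253 by edgeR). BCL2A1, a pro-survival relative, had 1.80 ± 0.944 and 0.642 ± 0.281 CPM with overlapping groups, from only 8 to 68 counts per library. Its log2 fold change was −1.44 (SE 0.51, FDR 0.288). BCL2L12 had −0.41 (SE 0.14, FDR 0.272), with 25.9% of its exon length overlapped by another gene. BNIP3, a mitophagy receptor with several pseudogenes, had −0.43 (SE 0.18, FDR 0.349). The groups overlapped for BNIP3 and not for BCL2L13 or BCL2L12.

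Of 15 apoptosome and caspase genes 14 were tested, with 1 higher and 3 lower and a median of −0.15. The count of higher genes became 0 without control replicate 1, siRBM3 replicate 3 or siRBM3 replicate 4, and 2 without control replicate 5. CASP6, an executioner caspase, had 16.7 ± 1.28 CPM in control and 10.6 ± 1.46 CPM in siRBM3 libraries without overlap. Its log2 fold change was −0.67 (SE 0.15), with an FDR of 0.151 by edgeR and an adjusted p of 0.00773 by DESeq2. XIAP, an inhibitor of caspases, had 114 ± 14.0 and 141 ± 9.76 CPM without overlap and a log2 fold change of 0.31 (SE 0.11, FDR 0.306). ENDOG, a mitochondrial nuclease, and HTRA2, a mitochondrial protease, had −0.38 (SE 0.13, FDR 0.263) and −0.33 (SE 0.14, FDR 0.365). Of their exon lengths, 40.1% and 32.3% are shared with other genes. The groups overlapped for HTRA2 and not for ENDOG.

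All 11 death receptor genes were tested, with 1 higher and 1 lower and a median of −0.02. Without control replicate 3 both counts became 0, the lower count was also 0 without control replicate 5, siRBM3 replicate 4 or siRBM3 replicate 5, and it was 2 without control replicate 1 or siRBM3 replicate 3. TNFSF10, which encodes the ligand TRAIL, had 25.6, 30.2 and 54.3 CPM in control and 66.4, 90.7 and 58.4 CPM in siRBM3 libraries. The groups did not overlap, but control replicate 5 lay near the lowest siRBM3 library. The log2 fold change was 0.97 (SE 0.29), with an FDR of 0.24 by edgeR and an adjusted p of 0.0289 by DESeq2. FAS, a death receptor, had −0.44 (SE 0.16, FDR 0.306) with overlapping groups, and 25.7% of its exon length is overlapped by other genes.

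Of 15 regulators of the members 14 were tested, with 1 higher and 2 lower and a median of −0.03. The 2 lower genes became 0 without control replicate 3, control replicate 5 or siRBM3 replicate 3, and 1 without siRBM3 replicate 4 or siRBM3 replicate 5. USP9X, a deubiquitinase that stabilises MCL1 protein, had 182 ± 12.0 and 229 ± 4.15 CPM without overlap and a log2 fold change of 0.33 (SE 0.09, FDR 0.197 by edgeR). MDM2, a ubiquitin ligase, had −0.33 (SE 0.13, FDR 0.329) with overlapping groups. DDIT3, the stress factor CHOP, had −0.44 (SE 0.18, FDR 0.35), also with overlapping groups, and 39.6% of its exon length is overlapped by other genes. No gene of the 4 lists passed both thresholds in the main edgeR fit, which used the filter on low counts, and 1, CASP6, did in DESeq2. Without that filter, edgeR gave BCL2A1 a log2 fold change of −1.43 with an FDR of 0.00691, past both thresholds.

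**Figure D5:**
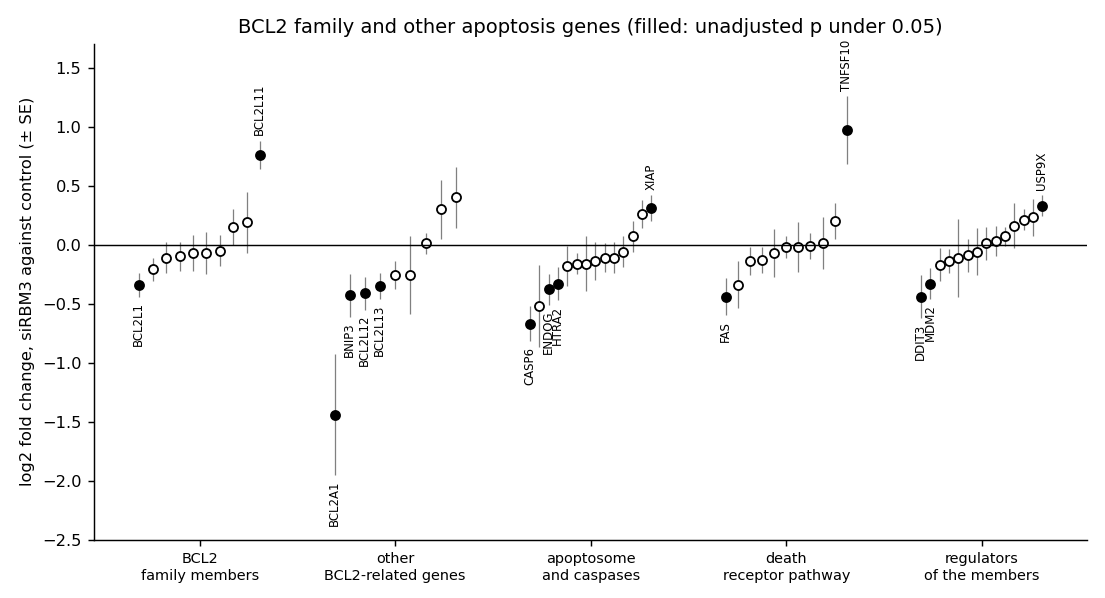
Log2 fold change (± SE) in siRBM3 against control of the 10 members and of the tested genes of the 4 apoptosis lists, from edgeR. Filled points have an unadjusted p under 0.05 and are named; TNFSF10 at 0.97 and BCL2L11 at 0.76 are the highest and BCL2A1 at −1.44 is the lowest.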

How the data were processed

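Reads of 75 bp were, per the labels and the submitters' processing notes, aligned to hg19/GRCh37 with STAR 2.5.2a, duplicates were marked with Picard and reads per gene were counted with featureCounts. The study's methods add trimming with BBDuk. The authors deposited whole-number counts per Ensembl gene identifier, not normalized. Annotation release, strand setting and whether duplicates were counted remain unstated in the sources used here. Of 63677 identifiers, 55665 were matched to GENCODE on GRCh37, and each of the 6 columns was used.

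Genes were filtered with filterByExpr (minimum count 10, total 15), normalized by TMM and tested by quasi-likelihood in edgeR 4.0.16 with Benjamini-Hochberg adjustment over 15099 genes. The thresholds came from the study's methods, which used DESeq2. DESeq2 1.42.0, limma 3.58.1 (voom), other scalings, filters and thresholds, a replicate block and each library left out in turn were alternatives. The fits were also run on simulated data, and as no outcome is given here, this says nothing about the results above. Totals were 23603992 to 45098612 counts, and BCL2, the member with the fewest, had 72 to 119. Libraries of a group differed beyond sampling noise (chi-square per degree of freedom 27.7 to 141). R 4.3.3, Python 3.11.15, pandas 2.3.3 and Biopython 1.88 were used.

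Named genes were RBM3, all 10 members, and from each of the 4 apoptosis lists those at an unadjusted p under 0.05, at most 6 per list. The members were fixed by symbol and not by their values, but members and lists were chosen with earlier results of these data known. Of 93 listed symbols 92 were matched.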

Additional observations from a re-analysis of the deposited data

How the results depend on the processing

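The number of genes called higher and lower, 0 and 0 in edgeR, was 84 and 75 with DESeq2, 127 and 152 without a filter on low counts, 145 and 191 with the replicate block, and 51 and 32 at an FDR under 0.1 with no fold limit. Leaving out 1 library gave 0 higher and 0 to 1 lower (1 without control replicate 1). The number of members called, 0 in edgeR, was 1 with DESeq2, 1 without a filter, 1 with the replicate block and 1 at an FDR under 0.1, in each case BCL2L11. The cause of these differences was not tested.

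Control and siRBM3 shared only the numbers 3 and 5, whose libraries had deviations correlated across genes at r = 0.528 and 0.0884, while unmatched pairs reached r = 0.201, and the labels do not say that a number marks a shared culture. With this paired term the log2 fold change was 0.85 for BCL2L11 (FDR 0.00223 by edgeR) and −0.38 for BCL2L1 (FDR 0.0484). Libraries with an unshared number add nothing to these estimates, which rest on those numbered 3 and 5. The same holds for every other result with the replicate block, including its counts of called genes.

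Leaving out single libraries turned the direction of BAX (−0.13 to 0.06), BBC3 (−0.24 to 0.04) and PMAIP1 (−0.22 to 0.08). The other members kept their direction under all 13 alternatives. With the longest transcript as length, the pro-survival share in control was 47.9% and the effector share 13.9% in control and 13.6% in siRBM3 libraries. For the 13 named genes of the apoptosis lists and the counts in those lists the same alternatives were run after their values were seen, and 0 of 169 fold changes turned direction. Of the 169, 3 passed both thresholds, CASP6 in DESeq2, BCL2A1 without a filter (−1.43, FDR 0.00691 by edgeR) and BCL2A1 with the replicate block (−1.97, FDR 0.00941). With that block the higher counts of the apoptosome and death receptor lists went from 1 to 0 each (TNFSF10 0.62, FDR 0.415), the lower counts from 3 to 6 and from 1 to 2, and the higher count of the regulators from 1 to 2.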
